A study of Drosophila melanogaster with 384 samples.

Results

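The cytosolic ribosomal protein genes of Drosophila melanogaster were taken as the protein-coding genes whose symbol starts with RpL or RpS, which leaves out the mitochondrial ribosomal proteins (mRp). This gave 92 of the 13986 protein-coding genes, 46 main genes of the large subunit, 25 main genes of the small subunit and 21 duplicated copies whose symbols end in a, b or -like. Chromatin accessibility was read from single-cell ATAC-seq on the Fluidigm C1, a device that captures cells in separate chambers, where the Tn5 transposase tags open DNA. All cells form 1 group, sens-GFP+ cells sorted from 200 eye-antennal discs, which were dissected from wandering late larvae and pooled, so that there was 1 sample and no replicate. The flies were raised at 25 °C, and the discs were dissociated in trypsin at 37 °C for 1 hour before sorting. Library fragments under 150 bp were removed with beads. The animals carried the F2-B(sens)-GFP reporter (w;F2-B/CyO), in which an intronic enhancer of senseless (sens) targeted by Atonal drives GFP. The line carries a white allele and the CyO balancer, and the series describes its discs as wild type. The reporter marks the cells in which this enhancer is active, and an enhancer of 1 gene need not be active in 1 cell type only. The count table holds 72 cells, and the other cells that the labels name were not analysed here.

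Ribosomal proteins assemble with ribosomal RNA in the nucleolus into the large subunit, which forms peptide bonds, and the small subunit, which decodes the mRNA. Each protein is needed in a fixed ratio to the others, and the loss of 1 copy of many of these genes gives the dominant Minute phenotype of fly geneticists, with slow development and thin bristles. In flies, as in mammals, their transcripts mostly start at a pyrimidine-rich initiator, called the TCT initiator, in place of the common initiator element (Inr). Several are encoded by duplicated genes, some of which are known for expression in the germline.

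The sequences around the transcription start site (TSS) are shown first for main genes with many (RpLP0, RpL14) and the fewest (RpL35A, RpL9) counts per kb. Each stretch has the 80 bases upstream of an annotated TSS and the 20 bases from the TSS onward, read 5′ to 3′ on the strand of the gene from the RefSeq genome (Release 6 plus ISO1 MT). The TSS taken was the one with the nearest TCT initiator within 20 bp, and otherwise the most upstream. Capitals mark a TCT initiator within 20 bp of the TSS (CCTTTC, or the same letters with T in place of the first C, the last C or both) and, on either strand, the DNA replication-related element (DRE, TATCGATA), bound by the factor Dref, and Motif 1 (GGTCACAC), bound by the factor M1BP.
RpLP0: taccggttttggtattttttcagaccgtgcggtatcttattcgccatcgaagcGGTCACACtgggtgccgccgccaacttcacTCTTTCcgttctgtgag
RpL14: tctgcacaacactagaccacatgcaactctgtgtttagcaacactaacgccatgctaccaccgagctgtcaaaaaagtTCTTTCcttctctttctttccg
RpL35A: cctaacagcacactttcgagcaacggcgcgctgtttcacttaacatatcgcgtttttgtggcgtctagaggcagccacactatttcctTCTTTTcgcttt
RpL9: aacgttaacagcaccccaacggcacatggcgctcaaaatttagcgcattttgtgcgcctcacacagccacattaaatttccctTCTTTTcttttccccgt
The stretches lie at chr3L:22076012-22076111, plus strand, chr3L:8600926-8601025, plus strand, chr3R:5467082-5467181, minus strand, and chr2L:11004134-11004233, minus strand. A TCT initiator was found in all 4, while Motif 1 was found upstream of the TSS of RpLP0 only.

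The next stretches are from duplicated genes. RpS28-like and RpS28b are the copies with the largest difference in counts per kb, and RpL34a and RpL34b were added after their values had been seen.
RpS28-like: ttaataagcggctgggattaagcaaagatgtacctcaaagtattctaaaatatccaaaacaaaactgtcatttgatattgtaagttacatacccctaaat
RpS28b: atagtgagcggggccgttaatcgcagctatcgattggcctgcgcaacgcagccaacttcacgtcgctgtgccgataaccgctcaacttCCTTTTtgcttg
RpL34a: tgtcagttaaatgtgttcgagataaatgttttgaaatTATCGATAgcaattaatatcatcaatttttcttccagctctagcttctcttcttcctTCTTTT
RpL34b: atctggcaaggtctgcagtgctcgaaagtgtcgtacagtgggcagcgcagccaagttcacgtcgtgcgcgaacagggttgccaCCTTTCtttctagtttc
They lie at chr2L:9436724-9436823, plus strand, chrX:9554543-9554642, plus strand, chr3R:26059248-26059347, minus strand, and chr3R:9401207-9401306, minus strand. None of the marked letters was found in the stretch of RpS28-like, and RpL34a was the only one of these 4 with a DRE.

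Read over all members, 59.8% of the ribosomal protein genes (55 of 92, exact 95% interval 49.04 to 69.9%) had a TCT initiator within 5 bp of an annotated TSS. The share was 1.74% in the 13876 other protein-coding genes searched, 2.74% in the mRp genes and 11.5% in genes of translation factors. Among the main genes it was 66.2%, and among the copies 38.1%. The value depended on how exactly the annotated TSS was taken. With 20 bp allowed, 89.1% of the ribosomal protein genes and 97.2% of their main genes matched against 7.08% of other genes and 36.5% of translation factor genes, and at the most upstream TSS of each gene alone 32.6% matched against 1.17%. The Inr (TCAGT or TCATT) was found in 3.26% of the members and 18.1% of other genes, and the TATA box (TATAAA, from 40 to 15 bp upstream, sense strand) in 1.09% and 9.85%. In the window from 250 bp upstream to 50 bp downstream, a DRE was found in 30.4% of the members against 10.0% of other genes, and Motif 1 in 16.3% against 8.64%. Lists of like genes were close to the members, with a DRE in 28.8% of translation factor, 27.1% of proteasome and 21.9% of mRp genes and Motif 1 in 17.3%, 14.6% and 10.96%. A run of the GAGA motif (GAGAGAG, either strand) was found in 1.09% against 9.12%. In translation factor, proteasome and mRp genes the Inr was found in 3.85%, 8.33% and 4.11%. The TATA box was found in 5.77%, 0% and 8.22% of these lists, and the GAGA motif in 7.69%, 4.17% and 1.37%. All of these are below the shares of other genes, so low shares were not particular to the members. The TCT initiator and the Inr were searched on the sense strand, and no motif contains another. These are matches of letters, which are not shown to be bound or used in these cells.

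The count table gives whole-number counts for 68775 listed regions, which are pieces of the non-coding genome. A promoter region is a listed region that comes within 500 bp of a TSS, and it is a ribosomal protein promoter region if that TSS belongs to a member. There were 150 such regions among 19173 promoter regions, none of them in the window of more than 1 member. All but 2 members had at least 1, so 2.17% had none, against 16.3% of other protein-coding genes. Of the window around the most upstream TSS, a median of 73.7% was listed for the members and 59.9% for other protein-coding genes. The 72 cells had from 908 to 5892 counts (median 2694.5) in all listed regions, 197425 in total. The reporter's own gene stood out at its promoter, where sens had 21 counts in 16 cells and 16.3 counts per kb, and among photoreceptor genes gl (glass) had 22.6, elav 7.52 and chp 2.16. Of genes that eye progenitors or the epithelium at large also use, grh had 13.2 counts per kb, so 12.9, eya 7.21 and ey 5.96. For scale, the median of other protein-coding genes was 3.64 counts per kb, and 10% of them had at least 11.8. Among genes of other cell types that such a sort could hold, the glial repo had 2.02, the hemocyte gene Hml 2.57 and the muscle precursor gene twi 0.575 counts per kb, while eater and Him had no listed promoter region. The promoters of the R8 genes ato and boss had 3.15 and 2.35 counts per kb, so not every marker of the labelled cells was high. Values below are sums over the 72 cells with exact 95% Poisson intervals, which cover counting error only. The authors removed duplicate reads, but reads were not tagged by molecule, so any repeats of the same molecule that remain cannot be recognised.

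To ask whether the ribosomal protein promoters were more accessible than other promoters, their counts were summed and divided by the length of the regions. They held 704 counts on 112.073 kb, or 6.28 counts per kb (5.83 to 6.76), against 4.37 (4.34 to 4.397) in the 19023 other promoter regions. The ratio was 1.44 (1.33 to 1.55). The median region had 5.80 counts per kb among the members and 2.63 among the others. The regions of the members were shorter, with a median of 651.5 against 861 bp, and slightly lower in GC, at 37.8 against 39.7%. When other regions were weighted to the same lengths, the ratio was 1.33 (1.24 to 1.43), and against promoter regions of protein-coding genes alone it was 1.31. With 0.141% of the listed bases, the ribosomal protein promoters took 0.357% (0.331 to 0.384%) of all counts.

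Over all promoter regions, the higher density did not come with a larger share of regions detected. A count in any cell was found for 85.3% of the 150 regions (78.6 to 90.6%) and for 85.4% of the other promoter regions, which are the same share within counting error. The regions of the members were shorter, and lengths were not matched for this share. Among regions that hold a TSS, 95.7% of those of members (89.2 to 98.8%) had a count, against 88.3% of the others. Over all promoter regions, the difference lay above the level of a single count. A count in at least 5 cells was found for 57 regions, 38% (30.2 to 46.3%), against 25.1% of other promoter regions. At least 2 times the median density of other promoter regions, which is 5.25 counts per kb, was reached by 81 regions, 54% (45.7 to 62.2%), against 32% of the others. By gene, 18 of the 90 members with a region (20%) had at least 11.8 counts per kb, the level reached by 10% of other protein-coding genes. The median member had 6.86 counts per kb and the median other gene 3.64, and 62 of the 90 members were above the latter.

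**Figure D1:**
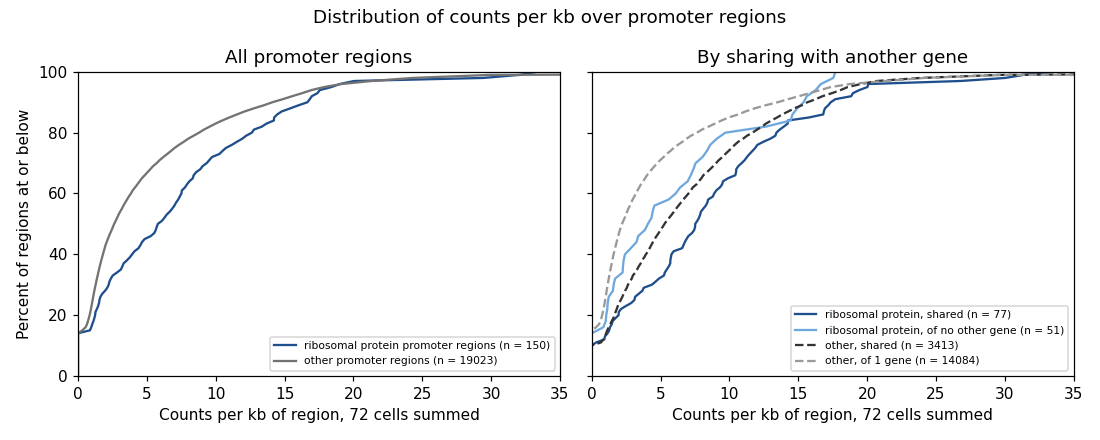
Percent of promoter regions (vertical axis) at or below a given number of counts per kb (horizontal axis, 72 cells summed). Left, the 150 ribosomal protein regions lie to the right of the 19023 others, with medians of 5.80 and 2.63; right, the same regions split by whether they are shared with another protein-coding gene.

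Many members have a neighbouring gene whose promoter window takes in the same listed region, and density differed between regions with and without such a neighbour. Regions shared with another protein-coding gene (77 regions of 58 members) had 8.22 counts per kb (7.497 to 8.99). Regions in the window of no other gene (51) had 4.01 (3.43 to 4.66), so that the ratio was 2.05 (1.72 to 2.46). The 22 regions shared with non-coding genes only, among them snoRNAs hosted in introns of ribosomal protein genes, had 4.91 (3.73 to 6.33). Other promoters showed the same split, with 6.72 counts per kb in regions of 2 or more protein-coding genes and 3.96 in regions of 1 gene, a ratio of 1.70 (1.67 to 1.72). Within the shared class the members were still 1.22 times (1.11 to 1.34) the others. Within the unshared class the ratio was 1.01 (0.865 to 1.18), although the median unshared region had 4.08 counts per kb among the members and 2.203 among the others. Among the unshared regions, the 2 of RpL38 cover 8240 bp and had 13 counts. In a shared region the counts of the member and of its neighbour cannot be told apart.

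Pairs of genes that start back to back were counted separately. A protein-coding TSS on the other strand within 500 bp upstream was found for 36 members, 39.1% (29.1 to 49.9%), against 27.2% of other protein-coding genes and 72.6% of mRp genes. The 34 of these members with a listed region had 9.37 counts per kb (8.32 to 10.52), and the other 56 had 5.13 (4.65 to 5.64), intervals that do not overlap. By promoter motif, the intervals overlapped, which does not show that the densities are equal, and no ratio was computed for these splits. Members with a TCT initiator within 5 bp of an annotated TSS had 6.41 counts per kb (5.82 to 7.05). Those without 1 at that distance had 6.09 (5.40 to 6.85). Since 89.1% of members match within 20 bp, this split cannot compare members with and without the initiator. Members with Motif 1 and those without both had 6.28, and those with a DRE had 7.24 (6.33 to 8.24) against 5.91 (5.39 to 6.46).

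Density was highest at the TSS. The 92 regions that hold a TSS of a member had 7.01 counts per kb (6.44 to 7.61) and the 58 regions beside it, up to 500 bp away, had 4.45 (3.74 to 5.24). The ratio was 1.58 (1.31 to 1.91), against 1.34 (1.31 to 1.36) in other promoter regions. Regions between 500 and 1000 bp away had 3.40 counts per kb (2.91 to 3.94), those up to 2000 bp 3.83 (3.45 to 4.25) and those up to 5000 bp 3.47 (3.24 to 3.71). Around other protein-coding genes these values were 3.25, 3.02 and 3.07. The ratio of the members to other promoter regions was 1.496 (1.37 to 1.63) in regions that hold a TSS and 1.27 (1.07 to 1.497) in regions beside one.

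**Figure D2:**
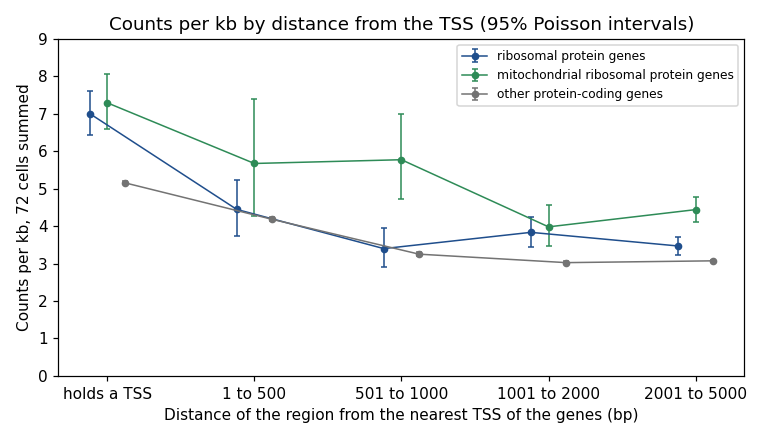
Counts per kb (vertical axis, 72 cells summed, bars are 95% Poisson intervals) by the distance of a region from the nearest TSS of ribosomal protein genes, mitochondrial ribosomal protein genes and other protein-coding genes. The ribosomal protein value falls from 7.01 in regions that hold a TSS to 3.40 between 500 and 1000 bp, where other genes have 3.25.

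Next, the members were set beside other genes of protein synthesis and turnover. The mRp genes, which encode the ribosome of mitochondria, had 7.04 counts per kb (6.41 to 7.73) over 96 regions, and the ratio of cytosolic to mitochondrial genes was 0.892 (0.791 to 1.01). Translation factors had 5.79 (5.198 to 6.44) and subunits of the proteasome, the main protease of the cytosol, had 5.42 (4.70 to 6.23). The ratios of the members to these lists, without regions in common, were 1.08 (0.944 to 1.23) and 1.16 (0.989 to 1.36). All 3 intervals include 1, so a difference from these lists was not detectable at this depth.

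Across the members, single genes had from 0 to 38 counts (median 7) in up to 25 cells (median 7). The lower bound of the interval was above the median of other genes for 35 of the 90 members (38.9%, against 22.6% of other protein-coding genes), and the upper bound was below it for 5 (5.56%, against 8.22%), namely RpL9, RpL35A, RpL37-2, RpL38 and RpL10Aa. The 12 highest main genes ran from 12.97 to 20.1 counts per kb, and 10 of them share a region with another protein-coding gene, as do 5 of the 8 lowest, from 0 to 1.39 counts per kb, and 58 of all 90 members with a region (64.4%). With so few counts per gene, most neighbours in this order have overlapping intervals.

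**Figure D3:**
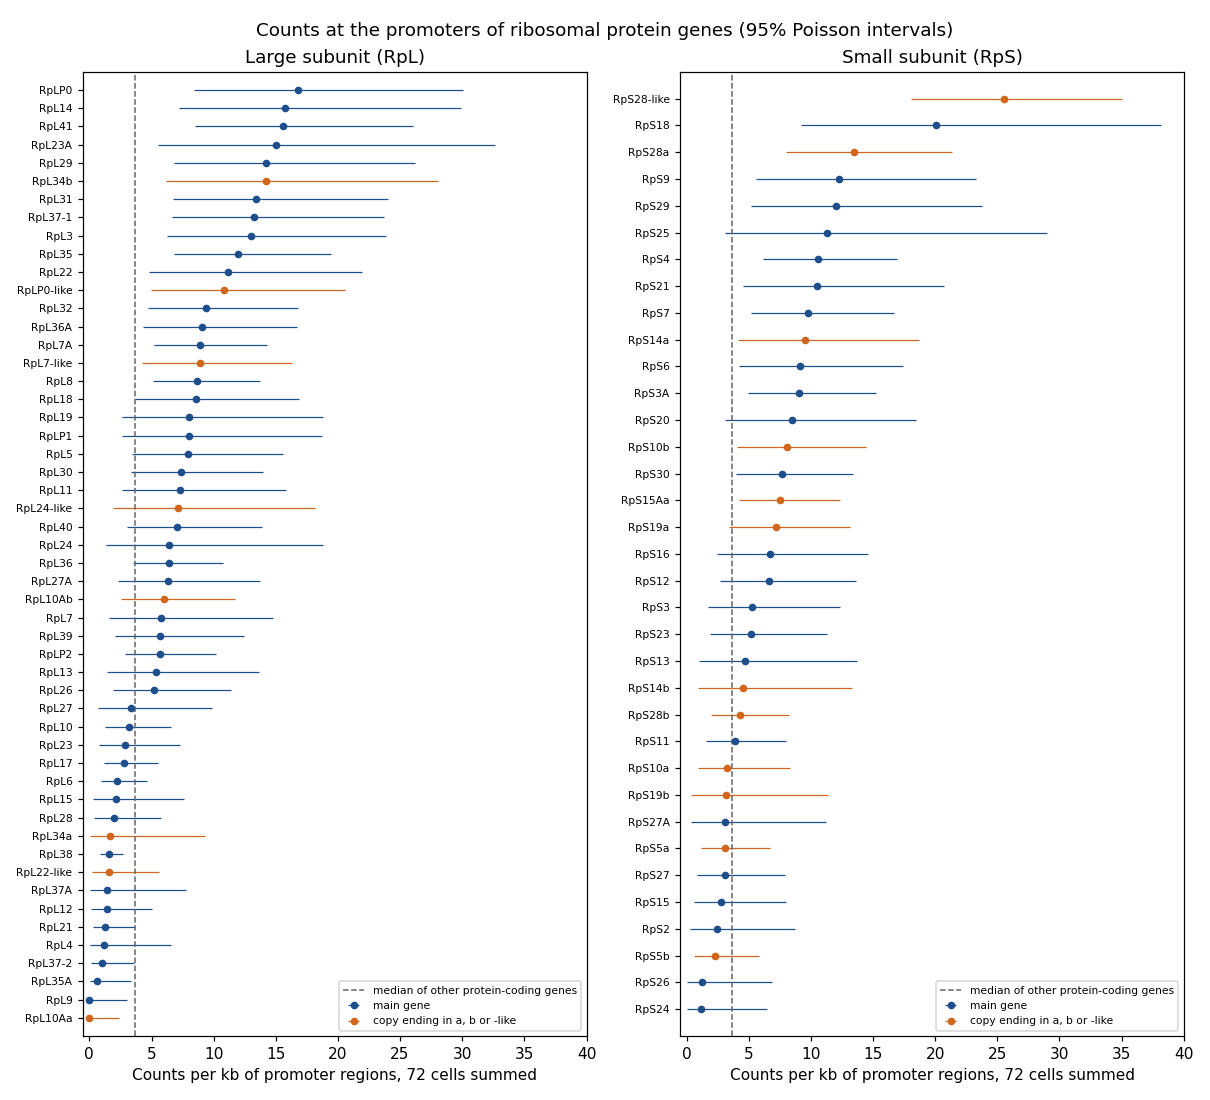
Counts per kb of promoter regions (horizontal axis, 72 cells summed) of 87 ribosomal protein genes with a listed region, by subunit, with 95% Poisson intervals. Blue points are main genes, orange points are copies, and the dashed line is the median of other protein-coding genes at 3.64; most intervals overlap and 59 points lie above the line.

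Among the large subunit genes, RpLP0, RpLP1, RpLP2 and RpL12 build the stalk that recruits translation factors. RpLP0, the base on which the others bind, had 11 counts in 9 cells and 16.8 counts per kb (8.38 to 30.05) in a region that holds its TSS and is shared with CG7130. RpLP1 had 5 counts and 8.03 counts per kb. RpLP2 had 11 counts in 11 cells and 5.70 counts per kb, of which 10 counts were in the 565 bp region at its TSS (17.7 counts per kb). RpL12 had 2 counts in 2 cells and 1.39 (0.168 to 5.01). The 4 stalk genes therefore covered nearly the whole range of the members, with 6.24 counts per kb (4.18 to 8.96) in sum.

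The proteins at the rim of the exit tunnel, where the new chain leaves the ribosome, had 7.05 counts per kb (5.36 to 9.12) over 7 genes. RpL23A was the highest of them, with 6 counts in 4 cells on 400 bp (15.0 counts per kb, 5.50 to 32.6). RpL31 had 11 counts in 9 cells and 13.4 counts per kb, and RpL35 had 16 counts in 12 cells and 11.98. RpL17 was the lowest, with 8 counts on 2852 bp (2.81, 1.21 to 5.53). RpL5 and RpL11, which carry the 5S rRNA into the large subunit, had 7.92 and 7.26 counts per kb. RpL40 and RpS27A, made as fusions with ubiquitin, had 7.03 and 3.11.

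Other large subunit genes set the ends of the range. RpL41, which encodes the smallest ribosomal protein, had 14 counts in 11 cells and 15.5 counts per kb, with 13 of the counts on the 390 bp at its TSS. RpL29 had 10 counts and 14.2 counts per kb. RpL3, a protein near the peptidyl transferase centre, had 10 counts and 12.97. In contrast, RpL4 had 1 count, RpL21 3 counts on 2395 bp (1.25 counts per kb) and RpL35A 1 count on 1657 bp (0.604, 0.0153 to 3.36). RpL9 had no count on the 1230 bp that hold its TSS and the promoter of Nup154, a nuclear pore gene. That is 0 of 72 cells, for which a limit of 3 counts gives 4.17% of cells and 2.44 counts per kb, while the exact two-sided interval reaches 2.999. RpL13A had no listed region in its window (the nearest was 2167 bp away) and gives no value.

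Small subunit main genes had 7.46 counts per kb (6.42 to 8.63) and large subunit main genes 5.58 (5.01 to 6.19), a ratio of large to small of 0.748 (0.623 to 0.899). Without RpL38, whose regions are the longest, the ratio was 0.828 (0.690 to 0.997), an alternative chosen after seeing the data. The interval reached 1 in regions that hold a TSS, at 0.820 (0.674 to 1.001), with 100 bp at 0.871 (0.720 to 1.06) and with 1000 bp at 0.866 (0.733 to 1.03), so the difference between subunits was not stable to the window. In regions of no gene outside the group, which include both regions of RpL38, the ratio was 0.609 (0.432 to 0.862). By gene, the medians were 7.66 for the small and 6.42 for the large subunit.

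RpS18, a protein of the head of the small subunit, was the densest main gene, with 9 counts in 9 cells on 448 bp (20.1 counts per kb, 9.19 to 38.1) shared with plu. RpS3A, on chromosome 4, had 14 counts in 13 cells (18.1%) and 9.08 counts per kb in a region of no other gene. The genes of the mRNA entry channel, RpS2, RpS3 and RpS30, had 2.42, 5.30 and 7.66 counts per kb. RpS24 and RpS26 had 1 count each, at 1.16 and 1.24 counts per kb.

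The list of 7 genes of well known Minute loci, with RpL14, RpS3, RpS13, RpL36, RpS15 and RpL38 among them, had 4.21 counts per kb (3.22 to 5.40) together, and 5.56 in the median region. RpL14 was high, at 15.8 counts per kb. All of its 9 counts, from 9 cells, fell on the region at the TSS, which is shared with Nelf-E, a subunit of the negative elongation factor, which starts just upstream on the other strand. RpL36 had 6.39 counts per kb, RpS3 5.30, RpS13 4.70 and RpS15 2.75. RpL38 had 1.58 (0.840 to 2.70) over both of its regions and 7.39 in the 677 bp region at its TSS.

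The duplicated copies were then compared with the main genes. The copies had 6.91 counts per kb (5.91 to 8.03) and the main genes 6.11 (5.60 to 6.65), a ratio of main to copies of 0.884 (0.742 to 1.06). The direction turned with 1 gene and with the window. Without RpS28-like the ratio was 1.07 (0.882 to 1.30), an alternative added after seeing the data. In regions that hold a TSS it was 1.37 (1.11 to 1.70), with 7.51 counts per kb (6.83 to 8.23) for main genes and 5.49 (4.51 to 6.62) for copies, while with 1000 bp on either side it was 0.697 (0.6004 to 0.810). Main genes were thus higher than copies in whole regions that hold a TSS, with intervals that cover counting error only. In regions of no gene outside the group the ratio of main to copies was 1.44 (0.948 to 2.26), an interval that includes 1.

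RpS28-like had 38 counts in 25 cells and 25.5 counts per kb (18.1 to 35.03), the most of any member, but 37 of them were in a region from 9437180 to 9438438 on 2L that does not hold its TSS. That region is also in the promoter window of numb, which encodes an inhibitor of Notch known for its role in asymmetric cell division. It had counts in 24 cells (33.3%, 22.7 to 45.4%), the most of any region of the members. For scale, a promoter region at disco, among those with a count in most cells, had 78 counts in 39 cells. The 230 bp at the TSS of RpS28-like had 1 count, or 4.35 counts per kb. RpS28a had 11 of its 18 counts in a region beside its TSS and 7 in the region that holds it. It shares both regions with Axn and Mgat2. In the wider window RpS28-like was 5.89 times (2.80 to 13.9) RpS28b and 1.89 times (1.05 to 3.52) RpS28a, and RpS28a was 3.12 times (1.33 to 7.87) RpS28b. In the regions at the TSS the 3 copies had 4.35, 9.28 and 6.69 counts per kb and no interval of their ratios excluded 1.

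The remaining pairs are given as the ratio of the denser to the sparser gene, with an exact conditional interval. RpL22 was 7.22 times (1.44 to 69.8) RpL22-like, a copy known for expression in the testis, with 8 counts in 8 cells against 2 counts in 1 cell. RpL34b was 8.56 times (1.15 to 380) RpL34a, with 8 counts in 8 cells against 1 count. That count lay beside the TSS of RpL34a, whose own TSS region of 537 bp had none. RpL37-1 and RpL37-2, which the rule counts as main because their names end in a number, differed 13.3 times (2.91 to 123.6), with 11 against 2 counts. RpL10Ab had 8 counts in 8 cells (5.97 counts per kb) and RpL10Aa had 0 on 1560 bp, for which a limit of 3 counts gives 1.92 counts per kb and the exact interval reaches 2.36.

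For the pairs not yet named the interval of the ratio included 1. RpS5a was 1.36 times RpS5b and RpS19a 2.27 times (0.483 to 21.3) RpS19b, where the b copies are known for expression in the germline. RpS10b was 2.48 times (0.734 to 10.7) RpS10a, and RpS14a was 2.09 times (0.501 to 12.2) RpS14b, its tandem copy. RpL24-like, RpL7-like and RpLP0-like, whose yeast relatives act in the assembly of the large subunit and not in the finished ribosome, had 7.10, 8.87 and 10.8 counts per kb. Their namesakes RpL24, RpL7 and RpLP0 had 6.42, 5.77 and 16.8. RpS15Aa had 15 counts in 12 cells (7.504 counts per kb), while RpS15Ab had no listed region in its window, the nearest lying 526 bp away. Of 13 ratios computed, 6 had an interval without 1, and of 12 computed in regions that hold the TSS, 2 did (RpL22 and RpL37-1 over their copies). These intervals are not adjusted for the number of pairs. How reads that match both copies were placed was not tested.

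**Figure D4:**
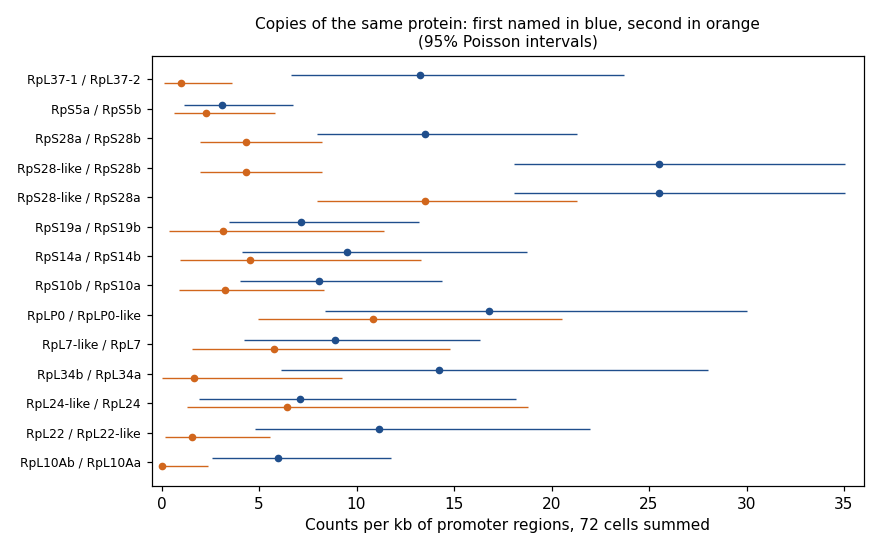
Counts per kb of promoter regions (horizontal axis, 72 cells summed, bars are 95% Poisson intervals) for pairs of genes of the same protein family, the first named in blue and the second in orange. The bars of RpL37-1 and RpL37-2, of RpL10Ab and RpL10Aa and of RpS28-like and RpS28b do not overlap, and those of the other pairs overlap.

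By chromosome arm, the density of the members ran from 5.16 counts per kb on 2R and 5.66 on 3R to 6.72 on 2L, 6.87 on X and 7.80 (6.50 to 9.30) on 3L. Other promoter regions lay between 4.19 and 4.79 on these 5 arms. The interval of the members was above the value of other promoter regions on each arm except 2R, where it ran from 4.38 to 6.03 around 4.53. RpL38 lies on 2R, where its regions cover 8240 bp of the 30.423 kb of the members. They had 13 counts, or 1.58 counts per kb. Whether 2R remains an exception without RpL38 was not tested. RpS3A is the only member on chromosome 4.

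Single cells held few of these counts. A cell had from 1 to 23 counts (median 9) in ribosomal protein promoter regions, in 1 to 19 regions (median 8), and no cell had none. Of the 602 entries above 0, 86.4% were equal to 1 and the highest was 5. The share of a cell's counts ran from 0.0568 to 1.10% (median 0.328%). Its variance over cells was 2.26 times that of binomial counting, and 2.04 times when taken as a share of promoter counts. This value grows with the counts in a list, so lists of unequal size are not compared by it. It was 1.82 for the main genes and 1.75 for the copies taken separately, 1.44 for the mRp genes and 13.5 for all promoter regions. Over the 72 cells the counts followed depth (Pearson r 0.57, Spearman rho 0.51), which both values share, and the share did not (r -0.13, rho -0.011). The cell with the highest share was the one with the lowest depth, 10 of its 908 counts. Because the cells varied beyond counting, the spread between cells is wider than the intervals of the summed values show, and the part of cell type, cell cycle or library quality in it was not tested.

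**Figure D5:**
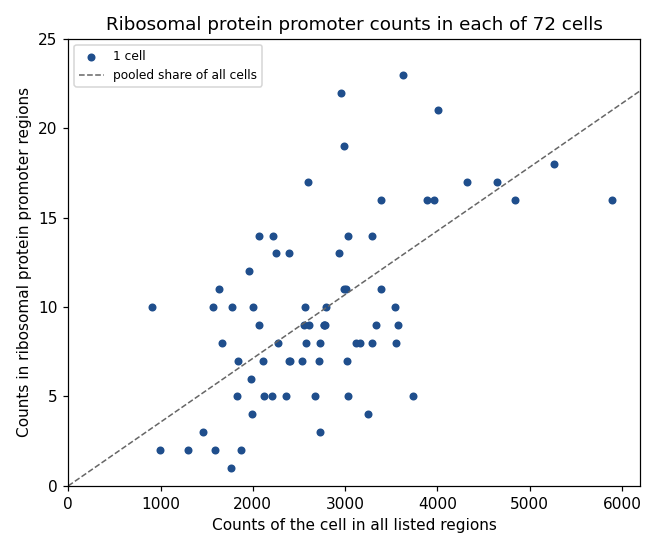
Counts in ribosomal protein promoter regions (vertical axis) against counts in all listed regions (horizontal axis) for each of the 72 cells, 1 point a cell, with the pooled share of 0.357% as a dashed line. Points run from 1 to 23 counts and scatter widely around the line.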

How the data were processed

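The authors trimmed adapters, mapped reads with Bowtie2 2.2.5 to FlyBase release 6 (dm6), used SAMtools 1.2, removed duplicates with Picard and kept cells by hand from aggregation plots. The deposited values are raw counts of each cell in each cisTarget region. The counting tool, whether reads or fragments were counted, any shift for the transposase and the choice of listed regions are not given for this table in the sources used here. All 72 columns matched 1 sample title each.

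Promoter regions (listed regions that overlap 500 bp on either side of a start) were found with the TSS of the Ensembl 115 annotation (release 6 coordinates, transposable elements left out) in Python 3.11.15 with scipy 1.17.1. Whole regions were used, also where they reach past 500 bp. Poisson, conditional binomial and Clopper-Pearson intervals are exact at 95%, and the interval and overlap code was tested on simulated data. No test across cells was made, since there was 1 sample. Members and lists were chosen with earlier results of these data known. Named by rule were the 12 highest and 8 lowest main genes with at least 200 bp, the 3 regions with counts in most cells, all copies, members without a region or count, the RpLP genes and 7 Minute genes. Values of 3 members are not reported singly here, though sums include them.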

Additional observations from a re-analysis of the deposited data

How the results depend on the processing

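Each of 8 results was recomputed under the alternatives, and 70 of the 95 values, including those a setting cannot affect, stayed within the interval of the reported value. At 100 bp from the TSS the members had 6.80 counts per kb, 0.296% of all counts and a ratio of main genes to copies of 1.31. At 1000 bp these were 5.36, 0.439% and 0.697, with a median region of 3.92. In regions that hold a TSS they were 7.01, 0.285% and 1.37. There 95.7% of regions had a count, against 88.3% of other promoter regions that hold a TSS. In regions of no gene outside the group, which include both regions of RpL38, the density was 4.01, the median region 4.08 and the share 0.0856%. There the ratio to other promoters was 1.01, of main genes to copies 1.44 and of large to small subunit 0.609 (0.432 to 0.862). Counting each region at most once per cell gave 5.37 counts per kb, and leaving out the 5 deepest cells gave 5.53. The ratio to other promoters was 1.31 against protein-coding promoters and 1.33 at equal lengths. Without RpS28-like, added after seeing the data, the ratio of main genes to copies was 1.07. A TCT initiator was found in 89.1% of members within 20 bp, 2.17% with the TSS as its C exactly and 32.6% at the most upstream TSS. The cause of these shifts was not tested, beyond what each setting leaves out. No paired analysis was possible because all cells are of 1 group. Depth limits single genes most, since the median member had 7 counts.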

Other observations

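Ribosomal protein genes often host small nucleolar RNAs in their introns. A snoRNA start was annotated in or within 500 bp of a promoter region of 17 members. These had 6.70 counts per kb (5.59 to 7.96) against 6.20 (5.70 to 6.72) for the other 73 members with a region, intervals that overlap. RpL13 shares its region with Dref, the gene of the factor that binds the DRE, and had 4 counts there (5.33 counts per kb). Singled out after its value was seen, RpL7A shares a region with dx (deltex, a regulator of Notch), which had 11 counts in 10 cells.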
